A study of Drosophila melanogaster with 2 samples.

Results

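miR-14, miR-278 and miR-33 are fly microRNAs (miRNAs) with known roles in metabolism, and their reads were followed in the central nervous system (CNS) of Drosophila melanogaster. The members were the rows named mir-14, mir-278 and mir-33 in the 2 deposited count tables, 3 of 174 hairpins in all, and each was listed in both tables. The adult CNS library came from brains with their antennal lobes, taken 3 to 5 days after eclosion. The larval CNS library came from ventral ganglia with their optic lobes, without eye discs, taken from wandering larvae of the third instar. Both came from the w[1118] Iso31 strain raised at 24 °C, from about 100 animals pooled with nearly equal numbers of each sex, and 1 µg of total RNA entered an Illumina TruSeq small RNA kit. There was 1 library per stage, so there is no replicate check and no p-value was computed. Each difference is one between these libraries, and stage and dissection cannot be told apart. In bulk tissue a change in the number of cells of a type and a change in RNA per cell cannot be told apart either.

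A miRNA is cut from a hairpin precursor as a duplex of a 5' arm and a 3' arm, and usually one arm is kept in an Argonaute protein and guides it to messenger RNAs that pair with its seed, while the other arm is mostly degraded. In flies miR-14 limits fat storage, acts in the insulin-producing neurosecretory cells of the brain, dampens cell death and tunes the response to the steroid hormone ecdysone. miR-278 controls energy balance by repressing expanded, and its loss leaves the fat body poorly responsive to insulin. miR-33 lies within the gene of the lipid regulator SREBP, as do its vertebrate relatives, and in mammals represses genes of cholesterol export and fatty acid oxidation.

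The annotation of assembly BDGP6 (Ensembl release 115) places the 3 hairpins apart from each other and from every other hairpin in the tables, with 0 listed hairpins within 10 kb of any of them. mir-14 (FBgn0262447; 2R, 9553762 to 9553824, plus strand) lies in an exon of the noncoding RNA lncRNA:CR43651, with its 5' arm at 9553765 to 9553786 and its 3' arm at 9553802 to 9553823. mir-278 (FBgn0262403; 2R, 15657066 to 15657163, plus strand) overlaps an exon of the protein-coding gene CG42524 on its own strand, in the 3' UTR, with its 5' arm at 15657083 to 15657105 and its 3' arm at 15657122 to 15657143. mir-33 (FBgn0262393; 3L, 19797961 to 19798059, plus strand) is intronic to SREBP, on the same strand, with its 5' arm at 19797986 to 19798006 and its 3' arm at 19798025 to 19798046. The annotated arms are between 21 and 23 bases long. Whether the kit captured different arms equally well was not tested, so ratios between arms or miRNAs are ratios of reads.

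Counts are reads per hairpin, and levels are given in RPM, reads per 1000000 hairpin reads of the library. The adult library held 1665159 and the larval library 822500 hairpin reads, so 1 read stood for 0.601 RPM in the adult CNS and 1.22 RPM in the larval CNS. Intervals are exact (Clopper-Pearson) at 95% and cover the counting error of reads only. Without molecular identifiers in the kit, PCR copies of a molecule count as separate reads. A hairpin or arm met the call for a library when the libraries together held 20 or more of its reads, its level reached 10 RPM in one of them, the ratio was at least 2 and its interval did not include 1. By this rule 46 of 114 hairpins compared (40.4%) were higher in the adult library and 28 (24.6%) in the larval library. With reduced totals these numbers were 40 and 41, since every log2 ratio then dropped by 0.52. Reduced totals leave out of both libraries the 14 hairpins, miR-14 among them, that were among the 10 most abundant of either library.

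All 3 miRNAs had more reads relative to the total in the adult library, miR-14 and miR-278 by several fold and miR-33 by less than the called fold. miR-14 had 133097 reads (79931 RPM, interval 79519 to 80343) in the adult library and 7191 reads (8743 RPM, 8543 to 8946) in the larval library. It ranked as hairpin number 5 of 169 in the adult CNS and number 16 of 139 in the larval CNS. miR-278 had 7467 reads (4484 RPM, 4383 to 4587) in the adult library and 706 reads (858 RPM, 796 to 924) in the larval library, and ranked number 27 in the adult CNS and 48 in the larval CNS. miR-33 had 2503 reads (1503 RPM, 1445 to 1563) in the adult library and 776 reads (943 RPM, 878 to 1012) in the larval library, and ranked number 41 in the adult CNS and 46 in the larval CNS. Together the 3 hairpins took 8.59% of adult and 1.05% of larval hairpin reads.

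Of the 3, miR-14 and miR-278 met the call for the adult library and miR-33 met neither call, and with 3 members this count says little beside the 40.4% of all hairpins. The log2 ratio, adult over larval, was 3.19 for miR-14, 2.38 for miR-278 and 0.67 for miR-33, against a median of 0.47 over the 114 hairpins compared. Relative to that median, which removes the choice of library total, miR-14 stood 2.72 and miR-278 1.91 higher, and miR-33 0.20 higher. miR-14 had the 14th, miR-278 the 20th and miR-33 the 52nd highest ratio of the 114. The fold of miR-33, 1.59 (1.47 to 1.73), was 1.11 (1.02 to 1.21) with the reduced totals.

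**Figure D1:**
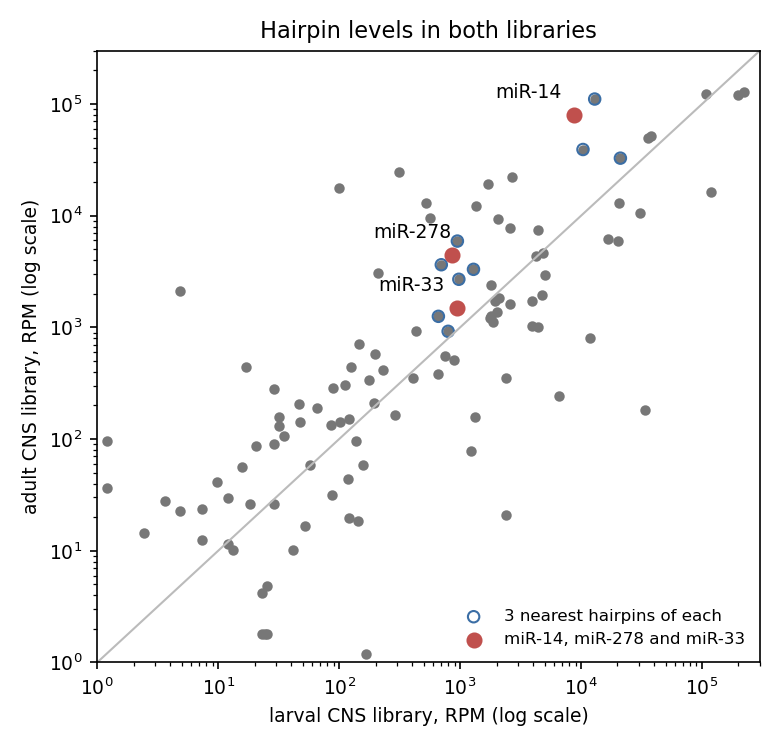
Level of each compared hairpin in the larval library (x axis, RPM, log scale) and the adult library (y axis, RPM, log scale). Red points are miR-14, miR-278 and miR-33, blue rings are the 3 hairpins nearest to each of them, the grey line marks equal levels, and 2 hairpins with 0 larval reads are left out. miR-14, at 79931 and 8743 RPM in the adult and larval libraries, and miR-278, at 4484 and 858 RPM, lie well above the line, and miR-33, at 1503 and 943 RPM, lies close to it.

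miR-14 had the most reads of the 3 in both libraries, and the ratio of miR-278 to miR-33 differed between them. In the adult library miR-14 was followed by miR-278 and then miR-33, with intervals that do not overlap. In the larval library miR-278 and miR-33 did not differ beyond their counting error, at 0.910 reads of miR-278 per read of miR-33 (0.820 to 1.01), whereas the adult library had 2.98 (2.85 to 3.12). These ratios within a library do not depend on its total. The same ratio for miR-14 over miR-33 was 53.2 (51.1 to 55.3) in the adult CNS and 9.27 (8.60 to 9.99) in the larval CNS, and that for miR-14 over miR-278 was 17.8 (17.4 to 18.2) in the adult CNS and 10.2 (9.43 to 11.02) in the larval CNS.

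Read by arm, the adult excess of miR-14 and miR-278 lay in their 3' arms, and their 5' arms did not meet the call. The 3' arm of miR-14, the arm known as its guide strand, had 132602 reads (79633 RPM) in the adult library and 6992 reads (8501 RPM) in the larval library, a ratio of 9.37 (9.14 to 9.60). Its 5' arm had 316 reads (190 RPM, interval 169 to 212) in the adult library and 188 reads (229 RPM, 197 to 264) in the larval library. The ratio of the 5' arm was 0.830 (0.691 to 1.00), with an interval that reached almost to 1. The 5' arm thus did not share the adult excess of the 3' arm, and it was not called lower either. The 3' arm ranked number 5 of 249 arms with reads in the adult CNS and 16 of 218 in the larval CNS, and the 5' arm ranked 80 in the adult CNS and 77 in the larval CNS.

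miR-278 showed the same division from a different start. Its 3' arm had 6622 reads (3977 RPM, interval 3882 to 4074) in the adult library and 355 reads (432 RPM, 388 to 479) in the larval library, a ratio of 9.21 (8.28 to 10.3). Its 5' arm had 822 reads (494 RPM, 460 to 529) in the adult library and 347 reads (422 RPM, 379 to 469) in the larval library. The ratio of the 5' arm was 1.17 (1.03 to 1.33), and it turned to 0.816 (0.719 to 0.927) with the reduced totals. In the larval library both arms of miR-278 thus stood at nearly the same level, at ranks 66 for the 5' and 65 for the 3' arm. In the adult library the 3' arm ranked 29 and the 5' arm 59.

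miR-33 was read almost wholly from its 5' arm, its known guide strand, in both libraries. That arm had 2493 reads (1497 RPM, 1439 to 1557) in the adult library and 770 reads (936 RPM, 871 to 1005) in the larval library, a ratio of 1.60 (1.47 to 1.74) that did not meet the call. The 3' arm of miR-33 had 3 adult and 2 larval reads, under the minimum of 20, and no fold is given for it. Over all hairpins 37 of 90 compared 3' arms (41.1%) and 22 of 76 compared 5' arms (28.9%) were higher in the adult library, and 24 of the 3' arms (26.7%) and 27 of the 5' arms (35.5%) in the larval library. The median log2 ratio, adult over larval, was 0.37 over these 3' arms and -0.40 over these 5' arms. Beside that, the 5' arm of miR-14 stood at -0.27 and that of miR-278 at 0.23.

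**Figure D2:**
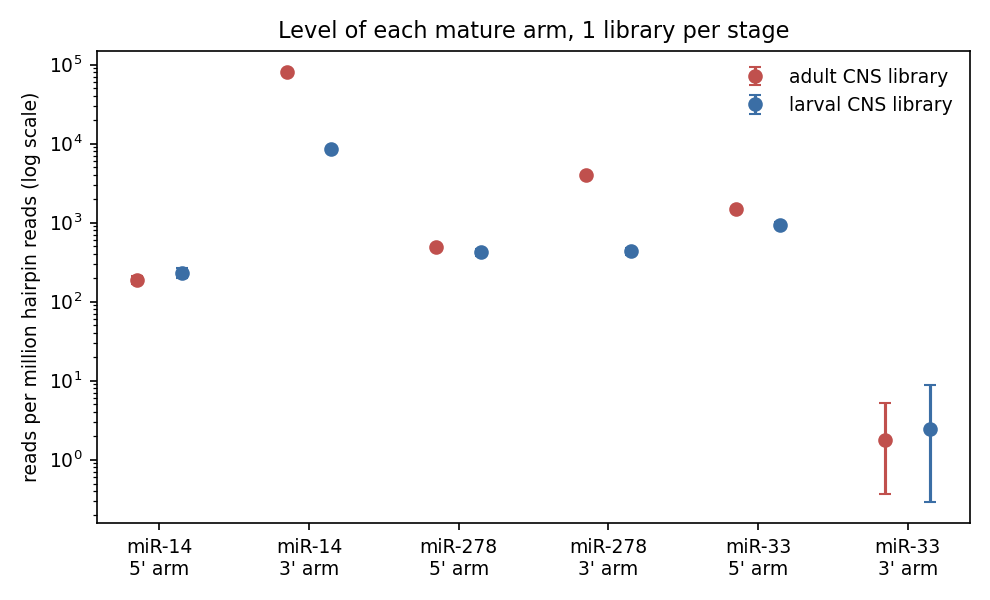
Level of the 5' and the 3' arm of each miRNA (y axis, RPM, log scale) in the adult library (red) and the larval library (blue), with bars for the exact 95% counting interval. The adult and larval points stand far apart for the 3' arms of miR-14 (79633 RPM adult, 8501 RPM larval) and miR-278 (3977 RPM adult, 432 RPM larval) and close together for the 5' arms of miR-14, miR-278 and miR-33.

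In terms of RPM, the 3' arm accounted for 99.9% of the difference between the adult and the larval library for miR-14 and for 97.8% for miR-278. The 3' arm of miR-14 held 99.6% of adult and 97.2% of larval reads of the hairpin, so almost any change of the hairpin would lie there. The 5' arm of miR-278 supplied 71.8 RPM of a difference of 3626 RPM. For miR-33 the whole difference of 560 RPM lay in the 5' arm, whose own difference was 561 RPM. That arm held 99.6% of adult and 99.2% of larval reads of its hairpin, so the same limit holds.

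The ratio of the 3' to the 5' arm within a library needs no total and measures the same division. For miR-14 there were 420 reads of the 3' arm per read of the 5' arm in the adult library (376 to 470) and 37.2 in the larval library (32.2 to 43.2), an 11.3-fold difference (9.35 to 13.6). For miR-278 there were 8.06 (7.49 to 8.67) in the adult CNS and 1.02 (0.880 to 1.19) in the larval CNS, a 7.87-fold difference (6.65 to 9.31). With exact reads alone, those equal to the annotated mature form, the differences were 10.5-fold (8.66 to 12.7) for miR-14 and 5.62-fold (4.66 to 6.80) for miR-278.

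The guide arms of miR-14 and miR-278 kept nearly the same proportion to each other in both libraries. The adult library had 20.02 reads of the miR-14 3' arm per read of the miR-278 3' arm (19.5 to 20.5) and the larval library had 19.7 (17.7 to 22.0). The adult ratio over the larval one was 1.02, with an interval of 0.909 to 1.13. This pair of arms was set side by side after their values were seen. Against the 5' arm of miR-33, the 3' arm of miR-278 stood at 2.66 reads per read (2.54 to 2.78) in the adult CNS and 0.461 (0.405 to 0.523) in the larval CNS.

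Among all hairpins with both arms compared, others also met the adult call on the 3' arm but not on the 5' arm. A 3' arm called higher in the adult library beside a 5' arm that was not occurred in 8 of 56 hairpins (14.3%), and the reverse occurred in 5 (8.93%). The 8 were miR-14 and miR-278 with miR-133, miR-981, miR-2c, miR-137, miR-929 and miR-281-2, the last 6 named after their values were seen. The log2 ratio of the 3' arm minus that of the 5' arm was 3.50 for miR-14 and 2.98 for miR-278, at ranks 5 and 9 of the 56, against a median of 0.43. The median size of this difference in either direction was 1.39. The count of 8 goes by the call and not by the size of the difference. It includes miR-281-2, with a difference of 0.43, and leaves out miR-124, with 3.25.

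**Figure D3:**
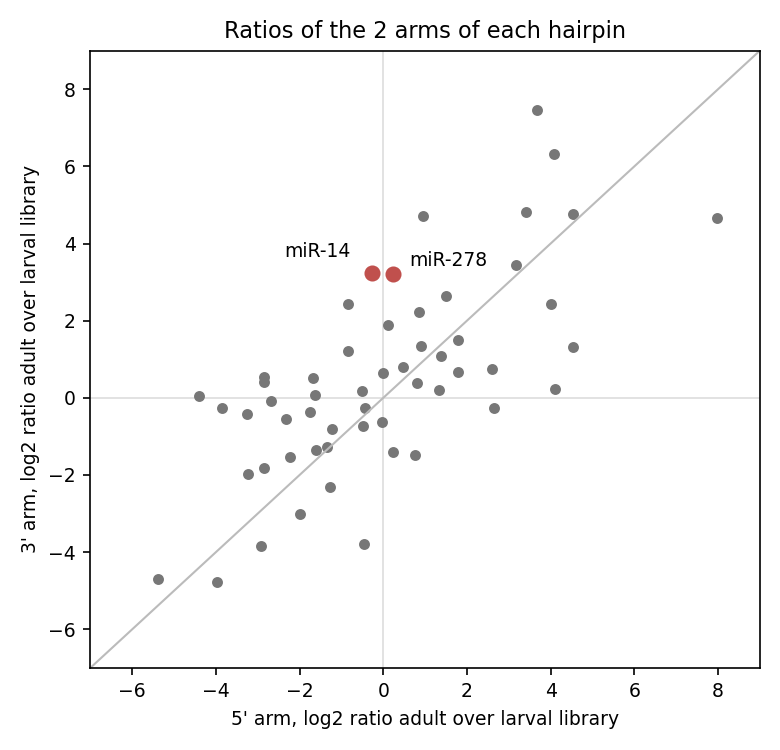
Log2 ratio, adult over larval library with 0.5 reads added to each count, of the 5' arm (x axis) and the 3' arm (y axis) of the 56 hairpins in which both arms were compared. The diagonal marks equal ratios. miR-14 (3.23 for the 3' and -0.27 for the 5' arm) and miR-278 (3.20 and 0.23), in red, lie side by side above the diagonal, and miR-33 is left out because its 3' arm had too few reads.

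Arm shares restate this on a scale where the starting level matters. The 5' share of mature reads of miR-278 was 11.04% (10.3 to 11.8) in the adult CNS and 49.4% (45.7 to 53.2) in the larval CNS. It fell by 38.4 percentage points, which met the call for a changed share, at least 10 points with intervals apart. In this direction 10 of 76 hairpins (13.2%) met it, and the fall of miR-278 ranked number 3 of the 76. The 76 include hairpins whose larval 5' share was under 10%, such as bantam (3.45%) and miR-8 (2.24%). These could not fall by 10 points, so 13.2% understates the share among hairpins that could. For miR-14 the 5' share was 0.238% (0.212 to 0.265) in the adult CNS and 2.62% (2.26 to 3.01) in the larval CNS. Its intervals do not overlap, but a share that small cannot move by 10 points downwards, so the share rule does not register the change in the ratio of its arms. For miR-33 the 5' share was 99.9% (99.6 to 100.0) in the adult CNS and 99.7% (99.1 to 100.0) in the larval CNS, with overlapping intervals.

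With exact reads the 5' share was higher for miR-14 and miR-278 in both libraries, and the difference between the libraries stayed. miR-278 then had 20.9% (19.6 to 22.2) in the adult CNS and 59.8% (55.6 to 63.8) in the larval CNS, a difference of -38.9 points, and 12 of 57 hairpins (21.1%) moved in this way by the rule. With exact reads the arm with more miR-278 reads was the 3' arm in the adult CNS and the 5' arm in the larval CNS. With all reads neither arm of miR-278 held a majority beyond counting error in the larval library. miR-14 had 0.449% (0.400 to 0.502) in the adult CNS and 4.52% (3.90 to 5.21) in the larval CNS. miR-33 had 2418 exact reads of its 5' arm and 1 of its 3' arm in the adult library, and 751 of its 5' arm and 1 of its 3' arm in the larval library.

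**Figure D4:**
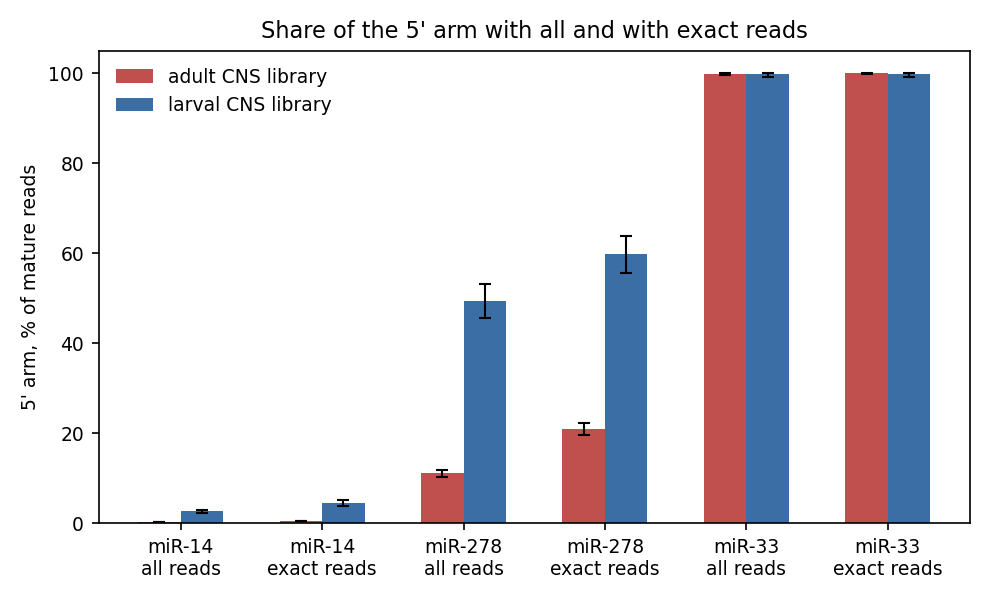
Share of mature reads on the 5' arm (y axis, %) with all reads and with exact reads only, in the adult library (red) and the larval library (blue), with bars for the exact 95% counting interval. The adult share of miR-278 lies far below the larval one with all reads (11.04% in the adult, 49.4% in the larval library) and with exact reads (20.9% adult, 59.8% larval), while miR-14 stays under 5% and miR-33 above 99%.

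For miR-14 and miR-278 the exact share differed more between the arms of a hairpin than between the libraries. Variant reads, those of an arm that were not equal to the annotated form, were frequent on the 3' arms of miR-14 and miR-278 and rare on all 3 well-read 5' arms. On the 5' arm the exact share was 95.9% in the adult CNS and 96.8% in the larval CNS for miR-14. For miR-278 it was 96.7% in the adult CNS and 98.8% in the larval CNS, and for miR-33 97.0% in adult and 97.5% in larval reads, with overlapping intervals in each case. On the 3' arm of miR-14 it was 50.7% (50.4 to 50.9) in the adult CNS and 55.0% (53.8 to 56.1) in the larval CNS, a difference of -4.31 points that did not meet the call. The median exact share over the 119 arms with at least 20 reads in each library was 59.4% in the adult CNS and 68.0% in the larval CNS. The deposited columns do not say how a variant read differs from the annotated form.

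The 3' arm of miR-278 was the member arm whose exact share met the call. It had 3013 exact reads among 6622 in the adult library, 45.5% (44.3 to 46.7), and 231 among 355 in the larval library, 65.1% (59.9 to 70.0). The difference of -19.6 points ranked number 7 of 119 arms by size of fall, and 23 of the 119 (19.3%) fell by the rule while 7 (5.88%) went up. Variant reads of this arm were 14.4-fold higher in the adult library (12.0 to 17.3; 3609 adult and 124 larval reads), and exact reads 6.44-fold (5.63 to 7.40). For the 3' arm of miR-14 these ratios were closer, 10.3-fold (9.90 to 10.6; 65435 adult and 3149 larval reads) for variant reads and 8.63-fold (8.36 to 8.92; 67167 adult and 3843 larval reads) for exact reads. Exact and variant reads of its 3' arm made up 50.1% and 49.8% of the RPM difference of miR-14, and 42.2% and 55.6% of that of miR-278.

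The 5' arms had few variant reads. miR-14 had 13 in the adult CNS and 6 in the larval CNS, under the minimum. miR-278 had 27 in the adult CNS and 4 in the larval CNS, 3.33-fold higher in the adult library, which met the call with a wide interval of 1.16 to 13.1. The exact share of this arm, 96.7% in the adult CNS and 98.8% in the larval CNS, had overlapping intervals. How many hairpins met the call on variant reads was not computed. miR-33 had 75 in the adult CNS and 19 in the larval CNS, a ratio of 1.95 (1.17 to 3.42).

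**Figure D5:**
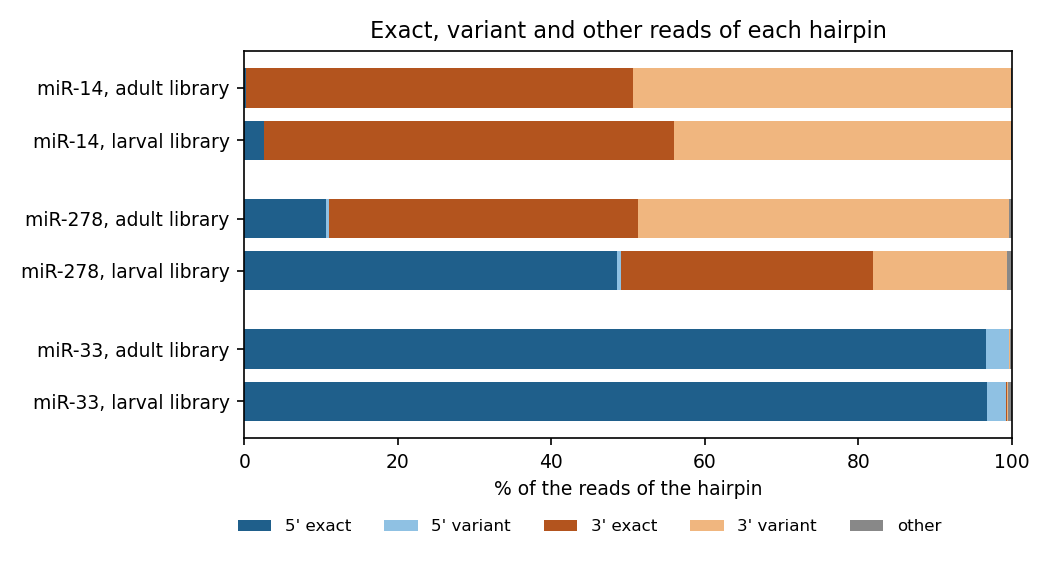
Reads of each hairpin divided into exact and variant reads of the 5' arm (dark and light blue), exact and variant reads of the 3' arm (dark and light orange) and other reads (grey), as % of the reads of that hairpin (x axis), with the adult library above the larval library. The 5' exact part of miR-278 is 10.6% in the adult CNS and 48.6% in the larval CNS and its 3' variant part 48.3% of adult and 17.6% of larval reads, while miR-33 has nearly the same make-up in both.

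Other reads of the hairpin, in neither mature arm, were scarce for all 3 miRNAs. miR-14 had 179 in the adult library, 0.134% of its reads (0.116 to 0.156), and 11 in the larval library, 0.153% (0.0764 to 0.274). miR-278 had 23 (0.308%, 0.195 to 0.462) in the adult CNS and 4 (0.567%, 0.155 to 1.44) in the larval CNS. miR-33 had 7 (0.280%, 0.113 to 0.575) in the adult CNS and 4 (0.515%, 0.141 to 1.31) in the larval CNS. The intervals of each pair overlap. The median share of other reads over the 114 hairpins compared was 1.27% in the adult CNS and 0.713% in the larval CNS. The other reads of miR-14 were 8.04-fold higher in the adult library (4.39 to 16.4), which met the call. Those of miR-278, 2.84-fold higher with an interval of 0.970 to 11.3, did not. How many hairpins met the call on other reads was not computed. Every mature read of the 3 hairpins fitted 1 hairpin only (100% in both libraries), so none of their own reads was shared between copies. The library totals under each RPM do hold shared reads of other hairpins.

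The hairpins nearest to each miRNA in level were found by distance in the plane of log2 RPM in the larval and log2 RPM in the adult library, over 2 libraries. For miR-14 they were miR-957 (0.74 log2 units away, 110838 RPM in the adult CNS and 12958 in the larval CNS), miR-999 (1.06 away, 39164 RPM adult and 10371 RPM larval) and miR-8 (1.81 away). For miR-278 they were miR-932 (0.42 away, 3639 RPM in the adult CNS and 699 in the larval CNS), miR-970 (0.43 away, 5927 RPM adult and 950 RPM larval) and miR-252 (0.73 away). For miR-33 they were miR-281-2 (0.57 away, 1256 RPM in the adult CNS and 661 in the larval CNS), miR-7 (0.75 away) and miR-990 (0.84 away). With 2 values per hairpin such closeness describes these libraries only.

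Other miRNAs of fly metabolism and insulin signalling did not share a direction. This list and those below were chosen with earlier results of these data known, so their counts are descriptions, to be read beside the 40.4% adult and 24.6% larval calls and the median of 0.47 over all 114 hairpins. Of 13 on the list, 11 were compared, which gave 4 adult calls, 4 larval calls and 3 that met neither, with a median log2 ratio of 0.63. Without miR-14, miR-278 and miR-33 the median was -0.65, so its sign rested on these 3. The 8 others held 2 adult calls, miR-277, which limits the breakdown of branched-chain amino acids, and let-7, and 4 larval calls, miR-305, which acts in gut stem cells under nutrient control, miR-9a, miR-311 and miR-312. miR-9a, which represses the receptor of short neuropeptide F, had 999 RPM in the adult CNS and 4445 in the larval CNS. miR-311 and miR-312 had 8 and 7 adult reads and 21 and 19 larval reads. miR-8, a regulator of growth through fat body insulin signalling, and bantam met neither call, and miR-310 and miR-313 were under the minimum.

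The ecdysone list, miRNAs known to respond to the hormone or to tune its signal, had 5 adult and 0 larval calls among its 6 members, beside 40.4% adult and 24.6% larval calls over all hairpins, with a median log2 ratio of 3.12. Those with miR-14 were let-7, miR-100, miR-125 and miR-34, and miR-8 met neither call. Without miR-14 the other 5 held 4 adult and 0 larval calls, with a median log2 ratio of 3.06. let-7, miR-100 and miR-125 come from a single transcript and are not independent of each other. The cell death list, which holds miR-14, miR-278, bantam, miR-263a and miR-263b and the miR-2 family with miR-11 and miR-308, had 4 adult and 4 larval calls among its 18 members, 10 of which met neither, beside the same 40.4% and 24.6% over all hairpins, with a median log2 ratio of -0.18. The adult calls were miR-14, miR-278, miR-2c and miR-263b, the last with 20 adult and 0 larval reads, and the larval ones were miR-263a and the 3 copies of miR-6, which share reads. Copies of miR-2a, of miR-2b and of miR-13b, which met neither call, also had nearly equal 3' arm counts, such as 1964 and 1963 adult reads for miR-13b. The 18 members are thus not independent of each other. Without miR-14 and miR-278 the other 16 held 2 adult and 4 larval calls, with a median log2 ratio of -0.21. With the reduced totals the whole cell death list had 3 adult and 7 larval calls, beside 40 and 41 of all 114 hairpins.

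Markers of other tissues and cell types were also read. The defining fat body markers were near 0, with 4 of the 6 hairpins miR-959 to miR-964 in the tables and 9 reads in the adult CNS and 0 in the larval CNS over all of them. Those at 0 in both libraries were miR-959 and miR-962. The muscle markers miR-1 and miR-133 summed to 13143 RPM in the adult CNS and 565 RPM in the larval CNS with none at 0. Nearly all of this sum was miR-133, with 13002 RPM in the adult CNS and 518 RPM in the larval CNS, while miR-1 had 141 RPM in the adult CNS and 47.4 RPM in the larval CNS. The photoreceptor marker miR-210 stood at 17586 RPM in the adult CNS and 99.7 RPM in the larval CNS. These markers were higher in the adult library together with miR-14 and miR-278, and their part in the result was not tested. The neuronal marker miR-124 had 1603 RPM in the adult CNS and 2564 RPM in the larval CNS over the whole hairpin. Its arms differed in direction. The 3' arm had 999 RPM in the adult CNS and 753 RPM in the larval CNS, and the 5' arm had 222 RPM adult and 1595 RPM larval. Testis markers had 24 adult and 3 larval reads over 8 hairpins, of which 3 were at 0 in the adult CNS and 5 in the larval CNS, and the ovary markers miR-318 and miR-994 had 40 adult and 4 larval reads, with miR-994 at 0 in the larval library.

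The authors' deposited table gives the same totals, with RPM values of 79931 and 8743 for miR-14, 4484 and 858 for miR-278 and 1503 and 943 for miR-33 in the adult and larval libraries. Its signed fold change runs larval over adult and is thus negative where the adult value is higher. In the authors' deposited table it was -9.14 for miR-14, -5.22 for miR-278 and -1.59 for miR-33, and the p-value of Kal's Z-test was written as 0 for each, as for 68 hairpins in that table. That test compares the reads of 2 libraries, not the stages.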

How the data were processed

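Small RNA reads of 1 adult and 1 larval CNS library of Drosophila melanogaster were analysed from the deposited tables. Per the file headers, the authors trimmed the reads and deposited read counts per annotated hairpin, divided into 5' mature, 3' mature and other reads, with exact and unique reads in columns of their own; 5', 3' and other reads summed to the total in every row. The submitters' processing notes name CASAVA 1.8 and dm3. The aligner, the counting program and the annotation release were not given in the sources used here. Their deposited comparison, made by the authors, holds RPM values, a signed fold change with the score of Kal's Z-test, and its p-value and Bonferroni p-value, per the file headers.

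From the counts, RPM over all hairpin reads, ratios with exact conditional binomial intervals and shares with Clopper-Pearson intervals were computed (Python 3.11.15, scipy 1.17.1). Ratios of 2 ratios have exact conditional odds ratio intervals. Log2 ratios have 0.5 reads added to each count, and a count of 0 stands for up to 3 reads. The members and lists were chosen with earlier results of these data known. The named hairpins are the 3 members, the members of the lists, the markers and the 3 hairpins nearest to each member. Alternatives were totals of mature reads, the reduced totals, edgeR 4.0.16 TMM factors, DESeq2 1.42.0 size factors, exact or unique reads, and other thresholds. Positions come from Ensembl release 115 by name and were not combined with dm3. Candidate hairpin lists and shared seeds were not analysed here.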

Additional observations from a re-analysis of the deposited data

How the results depend on the processing

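Under each of the 4 scalings miR-14, miR-278 and their 3' arms met the adult call, and miR-33 and the 5' arms of all 3 miRNAs met neither call. The folds moved. With the reduced totals the ratios, adult over larval, were 6.37 for miR-14, 3.64 for miR-278 and 1.11 for miR-33. Those of the 3' arms were 6.53 for miR-14 and 6.42 for miR-278. Those of the 5' arms were 0.579 for miR-14, 0.816 for miR-278 and 1.11 for miR-33. With DESeq2 size factors the ratios were 8.26 for miR-14, 4.72 for miR-278, 1.44 for miR-33, 8.46 for the 3' arm of miR-14 and 1.44 for the 5' arm of miR-33. With TMM factors they were 8.77 for miR-14 and 8.99 for its 3' arm. These scalings move every ratio by the same factor. Exact reads alone gave 8.50 for miR-14 and 3.37 for miR-278, and 8.63 and 6.44 for their 3' arms. They also gave 5' shares of 0.449% in the adult CNS and 4.52% in the larval CNS for miR-14, and 20.9% and 59.8% for miR-278. With a fold of at least 4 the hairpins called were 29 adult and 18 larval ones, and with a change of at least 20 points the arms whose exact share differed were 9 in place of 30, the 3' arm of miR-278 not among them. The cell death list had 7 larval calls in place of 4 with the reduced totals. The other 46 values and 10 exact shares stayed within the counting interval or, for counts, within 1.5 times. No paired analysis was possible because there was 1 library per stage, and for the same reason no replicate could be left out. Depth limits the 3' arm of miR-33 and the variant reads of the 5' arms.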
